A study of Mus musculus with 6 samples.

Results

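The 5 genes described here, Ly6a, Ly6c1, Ly6c2, Ly6d and Ly6e, belong to the mouse Ly6 family and were looked up by symbol in a table of liver gene expression that holds 14492 genes. All 5 were in the table. They were chosen by their presence there, which requires reads, and were listed with earlier results of these data in view. No gene of the table had under 10 reads over the 6 libraries. So the values below describe these genes and do not test why they were picked. Ly6c1, with 53 reads in all, was the lowest of the 5, whereas the lowest Ly6 relatives in the table, Ly6k and Ly6g6e, had 11 reads each.

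Poly(A)+ RNA was sequenced from the livers of male C57BL/6J mice that were 8 weeks old when they were injected through the tail vein and were then fed a high-fat diet for 2 weeks. By the labels, 3 libraries came from mice given a Chrna4-overexpressing adenovirus (a viral vector; Chrna4 encodes a subunit of nicotinic acetylcholine receptors) and the other 3 from vehicle mice. The promoter that drives Chrna4, the viral dose and whether vehicle mice received a virus without the gene are not stated in the labels used here, and the protocol text shared by all samples speaks of adenovirus for the mice of both groups. Each library has its own liver number. By its labels, the comparison asks how liver transcripts differ after the Chrna4 virus.

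Ly6 proteins are small and rich in cysteine, fold into a three-finger domain, and mostly sit on the outside of the cell on a glycosylphosphatidylinositol (GPI) anchor. Many of their genes lie together on mouse chromosome 15, and several are induced by interferons. In mice, Ly6 antigens serve as surface markers of blood cells and their precursors, and Ly6C marks the classical, inflammatory monocytes that enter an injured liver.

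Values are reads per 1000000 of a scaled library total (CPM), as deposited, and fold changes are Chrna4 adenovirus over vehicle on the log2(value + 1) scale, tested with limma over 12099 genes with a mean of at least 1. Recovered reads numbered 14959338 to 17023536 in the Chrna4 adenovirus libraries and 15191611 to 22440334 in the vehicle libraries. Chrna4 itself had 3.70, 2.17 and 3.82 CPM in the libraries labelled Chrna4 adenovirus, against 1.70, 4.99 and 3.38 in the vehicle libraries, and its log2 fold change was 0.0069 (limma, adjusted p = 0.993). The labelled overexpression was therefore not seen in the reads counted for this gene. Whether the transgene is counted under it, or whether a label is wrong, was not tested, and group names below are those of the labels. Hepatocyte markers were abundant in every library, with a summed level of 77697 to 87479 in Chrna4 adenovirus and 91949 to 101422 in vehicle. These sums depend on the deposited scaling. The median log2 fold change of the 12 markers was -0.33 under it and 0.0050 under plain library totals. Vehicle libraries differed more from each other than Chrna4 adenovirus libraries did. The chi-square per degree of freedom, computed on recovered reads with plain library totals, was 10.3 to 17.7 within Chrna4 adenovirus and 47.5 to 65.7 within vehicle. This value did not set vehicle library 1 apart over all genes. It was 47.5 between vehicle libraries 1 and 2, 65.7 between 1 and 3, and 49.1 between 2 and 3. Vehicle library 1 was the lowest vehicle library in 41.1% of all tested genes. In contrast, it was the lowest in 33 of 35 interferon-stimulated genes and in all 16 tested T and NK cell markers. The deposited scaling puts the median log2 fold change of all tested genes at -0.0067, and plain library totals put it at 0.30. Of the genes called, 58.1% were higher under the deposited scaling and 93.0% under plain totals.

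Ly6c1 and Ly6c2 are near-identical neighbours. They encode the antigen known as Ly6C, and they did not have the same values across these libraries. Their coding sequences are shown because reads from such copies can be hard to tell apart. Both are the protein-coding part of the principal transcript in GENCODE M21, spliced, read on the minus strand of GRCm38, from chr15:75045405-75048511 for Ly6c1 and from chr15:75108546-75111667 for Ly6c2. Bases 1 to 300 of 393 are printed, and capitals mark the 7 differing bases in this stretch, of 9 in all.
Ly6c1: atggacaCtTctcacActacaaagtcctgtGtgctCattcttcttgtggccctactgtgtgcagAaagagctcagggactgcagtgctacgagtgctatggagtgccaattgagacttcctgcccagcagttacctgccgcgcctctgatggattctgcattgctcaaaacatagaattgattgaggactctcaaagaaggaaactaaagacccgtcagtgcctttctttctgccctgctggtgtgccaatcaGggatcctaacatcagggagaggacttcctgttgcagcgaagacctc
Ly6c2: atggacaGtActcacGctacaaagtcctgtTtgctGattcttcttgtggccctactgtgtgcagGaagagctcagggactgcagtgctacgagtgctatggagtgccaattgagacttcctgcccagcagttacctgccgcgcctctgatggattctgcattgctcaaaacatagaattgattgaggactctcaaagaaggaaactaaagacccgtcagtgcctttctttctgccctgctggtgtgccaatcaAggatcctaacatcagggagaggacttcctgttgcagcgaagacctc
Counted from 1 at the first base of the start codon, with the Ly6c1 base first, the differences are C8G, T10A, A16G, G31T, C36G, A65G, G254A, T327C and G376A. The coding sequences were 97.7% identical. Each was about 82% identical to Ly6a (81.8% for Ly6c1 and 81.6% for Ly6c2), and every pair that held Ly6d or Ly6e was 49.8% to 53.4% identical. Coding parts ran from 127 codons in Ly6d to 136 in Ly6e, of which 10 (Ly6e) to 12 (Ly6a, Ly6c1 and Ly6c2) encode cysteine. Of all 150-base windows in the protein-coding transcripts, 39 of 717 (5.44%) in Ly6c2 and 39 of 1706 (2.29%) in Ly6c1 occur in the other gene, and no window of Ly6a, Ly6d or Ly6e occurs in another gene. The sources used here do not give how the authors counted reads that match both.

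The promoters of the same pair are less alike than the coding parts. They are shown, from the RefSeq promoter table on GRCm38.p6 (250 bases before to 50 after the start, minus strand), because they are the start regions of the pair whose values differed. The Ly6c1 promoter is chr15:75048788-75049087 and the Ly6c2 promoter chr15:75111922-75112221. Capitals mark TATAAA, the letters of a TATA box, in Ly6c1 and GAGGAAGT, a core bound by the myeloid factor PU.1, in Ly6c2.
Ly6c1: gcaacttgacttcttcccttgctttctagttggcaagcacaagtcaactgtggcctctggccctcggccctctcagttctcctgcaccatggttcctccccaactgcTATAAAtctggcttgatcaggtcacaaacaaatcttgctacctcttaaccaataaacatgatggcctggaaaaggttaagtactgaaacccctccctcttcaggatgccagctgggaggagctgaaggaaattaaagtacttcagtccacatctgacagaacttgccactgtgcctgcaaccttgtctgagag
Ly6c2: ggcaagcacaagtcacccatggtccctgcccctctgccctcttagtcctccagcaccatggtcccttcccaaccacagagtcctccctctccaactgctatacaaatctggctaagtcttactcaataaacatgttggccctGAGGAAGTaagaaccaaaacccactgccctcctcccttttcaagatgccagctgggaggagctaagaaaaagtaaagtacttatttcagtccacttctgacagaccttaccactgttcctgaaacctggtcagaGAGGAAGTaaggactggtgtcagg
The 2 windows were 78.2% identical over the 266 aligned columns with a base in both, and 62.3% over all 334 columns, gaps and the offset of the annotated starts included. Both strands were searched for 4 motifs. TATAAA had 1 match in Ly6c1, at position 108 of the window, 143 bases before the annotated start, and none in Ly6c2, and 13.6% of 32851 promoters in the table hold it. GAGGAAGT had 2 matches in Ly6c2, at positions 143 and 277, and none in Ly6c1, and 3.20% of promoters hold it. The interferon-gamma-activated site TTCNNNGAA and the interferon-stimulated response element in a shortened core, GAAANNGAA, matched in neither window, and 8.30% and 8.56% of promoters hold them. Promoters of Ly6a, Ly6d and Ly6e are not shown.

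Of the 5 genes, 4 could be tested and each of the 4 was called higher in Chrna4 adenovirus at an adjusted p under 0.05, where 14.2% of all tested genes were called higher and 24.5% in either direction. Ly6c1, with a mean under 1, was not tested. The groups of the 4 called genes did not overlap, which held for 43% of all tested genes in either direction and for 22% with Chrna4 adenovirus higher. Because low counts kept out the gene whose groups overlapped and the list was drawn up with results known, these counts carry no weight as evidence about the family. Under plain library totals the same 4 were called higher, with 37.3% of all tested genes. In bulk liver, more RNA per cell and more cells of a type cannot be told apart.

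**Figure D1:**
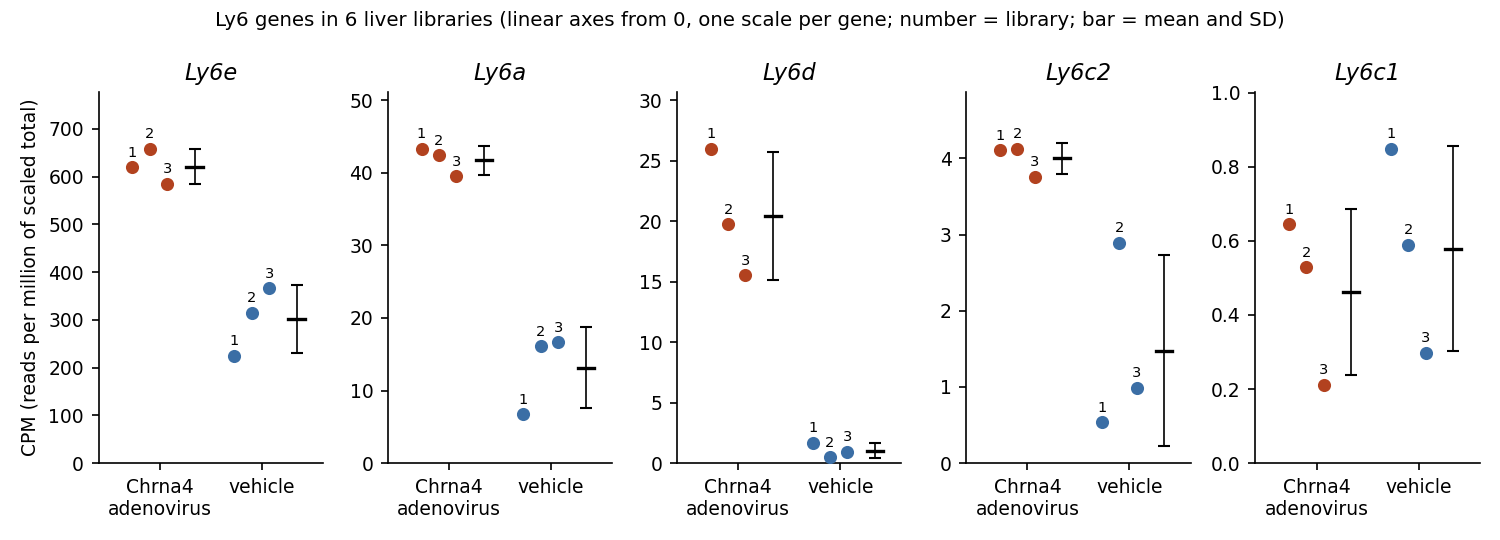
CPM (linear vertical axes, each from 0, with a scale of its own for each gene) for the 5 Ly6 genes in 3 Chrna4 adenovirus libraries (red) and 3 vehicle libraries (blue). Points are libraries, numbered, and the bar is the mean and SD. Ly6d averaged 20.4 in Chrna4 adenovirus and 1.04 in vehicle without overlap, and the groups of Ly6c1 overlapped.

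Ly6e (ENSMUSG00000022587, chr15:74955051-74959905, plus strand, GRCm38), an interferon-inducible gene whose protein limits the entry of coronaviruses into cells and serves as a receptor for the placental protein syncytin A in mice, was by far the most abundant of the 5. It had 619.1, 658.5 and 585.5 CPM in Chrna4 adenovirus, against 224.7, 315.3 and 366.4 in vehicle. The lowest Chrna4 adenovirus library lay well above the highest vehicle library, and vehicle library 1 was the lowest of the 6. Means were 621 ± 36.6 in Chrna4 adenovirus and 302 ± 71.8 in vehicle (SD, n = 3 each), a ratio of 2.06. The log2 fold change was 1.06 (SE 0.17, 95% interval 0.68 to 1.45; limma, adjusted p = 0.00368) and was 0.87 without vehicle library 1. Ly6e supplied 89.3% to 90.8% of the summed value of the 5 genes in Chrna4 adenovirus libraries, against 94.0% to 95.8% in vehicle libraries.

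Ly6a (ENSMUSG00000075602, chr15:74994877-74998031, minus strand) encodes Sca-1, the stem cell antigen used to sort mouse blood stem cells, which is also found on endothelium and activated lymphocytes and is induced by interferons. It had 43.3, 42.4 and 39.5 CPM in Chrna4 adenovirus, against 6.71, 16.1 and 16.6 in vehicle. Chrna4 adenovirus libraries lay close together, with a highest-to-lowest ratio of 1.10 against 2.48 in vehicle, where library 1 was far below libraries 2 and 3. Means were 41.7 ± 2.00 in Chrna4 adenovirus and 13.1 ± 5.58 in vehicle (SD, n = 3 each), a ratio of 3.17. The log2 fold change was 1.69 (SE 0.29, 95% interval 1.04 to 2.34; limma, adjusted p = 0.00476), and 1.30 without vehicle library 1.

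Ly6d (ENSMUSG00000034634, chr15:74762056-74763620, minus strand) is known as an antigen of keratinocytes and as a marker of lymphoid precursors committed to the B cell lineage in mice. It had 26, 19.7 and 15.5 CPM in Chrna4 adenovirus, against 1.70, 0.483 and 0.943 in vehicle. The lowest Chrna4 adenovirus library had 293 reads and the highest vehicle library 22 reads. In contrast to Ly6e and Ly6a, vehicle library 1 was here the highest of its group. Means were 20.4 ± 5.27 in Chrna4 adenovirus and 1.04 ± 0.613 in vehicle (SD, n = 3 each), a ratio of 19.6. The log2 fold change of 3.41 (SE 0.25, 95% interval 2.83 to 3.99; limma, adjusted p = 0.000240) was the fourth largest rise among all tested genes, and the added 1 makes it smaller than the ratio. In the authors' deposited table the log2 fold change of Ly6d was 4.35.

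Ly6c2 (ENSMUSG00000022584, chr15:75108158-75111970, minus strand) is the copy that monocytes use for the Ly6C antigen. It had 4.11, 4.13 and 3.76 CPM in Chrna4 adenovirus, against 0.540, 2.90 and 0.993 in vehicle, from 70, 78 and 71 reads against 7, 54 and 20 reads. Chrna4 adenovirus libraries were nearly level, whereas the highest vehicle library had 5.36 times the value of the lowest. Means were 4.0 ± 0.206 in Chrna4 adenovirus and 1.48 ± 1.25 in vehicle (SD, n = 3 each), and the log2 fold change was 1.13 (SE 0.31, 95% interval 0.42 to 1.83; limma, adjusted p = 0.0303). This is the weakest of the 4 calls. It was lost with edgeR's quasi-likelihood test on recovered reads, which called 14.1% of all tested genes higher (log2 fold change 1.41, adjusted p = 0.0617), with quantile normalization (limma, 0.75, adjusted p = 0.0788), without any single Chrna4 adenovirus library (limma, adjusted p = 0.0925, 0.0990 and 0.0806 without library 1, 2 and 3) and without vehicle library 3 (limma, adjusted p = 0.0766). It held without vehicle library 1 (limma, log2 fold change 0.84, adjusted p = 0.0375), without vehicle library 2 (1.51, adjusted p = 0.00386) and with DESeq2, which called 14.5% of genes higher (adjusted p = 0.0210).

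Ly6c1 (ENSMUSG00000079018, chr15:75044018-75048830, minus strand), the copy known from endothelium, was near the limit of detection in both groups. It had 0.646, 0.529 and 0.212 CPM in Chrna4 adenovirus, against 0.849, 0.590 and 0.298 in vehicle, from 11, 10 and 4 reads against 11, 11 and 6 reads. The groups overlapped throughout. Means were 0.462 ± 0.224 in Chrna4 adenovirus and 0.579 ± 0.276 in vehicle (SD, n = 3 each), and the difference in mean log2(value + 1) was -0.11, with an adjusted p of 0.706 in the limma fit without a filter on low values. At this depth a moderate difference in Ly6c1 was not detectable.

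Set against each other, the copies gave Ly6c2 most of the reads of the pair in 5 of the 6 libraries. Ly6c2 supplied 86.4%, 88.6% and 94.7% of the reads counted for both genes in Chrna4 adenovirus, against 38.9%, 83.1% and 76.9% in vehicle. In vehicle library 1 the share rests on 18 reads (Wilson 95% interval 20.3% to 61.4%, counting error only), and this interval lies below those of vehicle library 2 (72.2% to 90.3%) and of the 3 Chrna4 adenovirus libraries. The summed level of the pair, from all reads counted for either gene, was 4.46 ± 0.425 in Chrna4 adenovirus and 2.06 ± 1.24 in vehicle (SD, n = 3 each).

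Per kilobase of exon, which allows levels of different genes to be compared, the order in Chrna4 adenovirus was Ly6e (247 ± 14.6 CPM per kilobase), Ly6a (34.6 ± 1.66), Ly6d (27.4 ± 7.08), Ly6c2 (4.61 ± 0.237) and Ly6c1 (0.276 ± 0.134; SD, n = 3 each). In vehicle it was Ly6e (120 ± 28.6), Ly6a (10.9 ± 4.63), Ly6c2 (1.70 ± 1.44), Ly6d (1.40 ± 0.824) and Ly6c1 (0.345 ± 0.164). Ly6a and Ly6d in Chrna4 adenovirus, and Ly6c2, Ly6d and Ly6c1 in vehicle, were neighbours whose difference was not large against their SDs, and no order among them is drawn. Ly6d was thus near the level of Ly6c2 in the libraries labelled vehicle and near that of Ly6a in those labelled Chrna4 adenovirus. By mean CPM over the 6 libraries, without correction for exon length, Ly6e stood at percentile 98.0 of the genes in the table. Ly6a stood at 65.5, Ly6d at 44.0, Ly6c2 at 25.4 and Ly6c1 at 11.6.

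The genes whose log2 values followed each Ly6 gene most closely over the 6 libraries, among genes with a mean of at least 5, were Ifi204, Pfkp and Lpl for Ly6a (Pearson r 0.999 for each), Basp1, Notch1 and Atp6v1b2 for Ly6e (r 0.998 to 0.999) and Pld2, Pgs1 and Acad12 for Ly6d (r 0.995 to 0.997). For Ly6c2 they were Mfap3, Inip and Sorbs2 (r 0.991 to 0.996), and for Ly6c1 Pde9a, Plin4 and Arpp19 (r 0.972 to 0.989). Each r is the highest of 9728 or 9729 candidates and rests on 6 libraries in 2 groups, so it describes likeness only. Ifi204, the gene most like Ly6a, had 26.9, 25.5 and 24.7 CPM in Chrna4 adenovirus, against 7.33, 12.9 and 13.3 in vehicle. Its low vehicle library 1, as in Ly6a, follows from its choice by correlation over the same libraries.

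The 5 genes span chr15:74762056-75111970, an interval of 349.9 kb with 23 annotated genes, of which 13 are protein coding. Ly6d lies 191.4 kb from Ly6e, Ly6e 35.0 kb from Ly6a, Ly6a 46.0 kb from Ly6c1 and Ly6c1 59.3 kb from Ly6c2. The table holds 7 genes of the interval, the 5 listed genes and 2 more Ly6 genes at very low counts, Ly6k (0, 9 and 2 reads in Chrna4 adenovirus, against 0, 0 and 0 in vehicle) and Ly6i (5, 17 and 8 reads in Chrna4 adenovirus, against 2, 8 and 3 in vehicle), neither of which was tested. Ly6c1, whose groups overlapped, lies between Ly6a and Ly6c2, which were both called higher. Just outside, Lynx1, which encodes a Ly6-type modulator of nicotinic receptors, lies 9010 bases from Ly6d and was called higher (log2 fold change 0.72, SE 0.20; limma, adjusted p = 0.0331). The other 5 nearest tested genes were not called: log2 fold changes were 0.48 for Jrk and 0.31 for Them6 on the side of Ly6d, and -0.31 for BC025446, 0.076 for Gpihbp1 and 0.29 for Zfp41 on the side of Ly6c2 (limma, adjusted p = 0.135 to 0.618). Under plain totals Jrk, Them6, Gpihbp1 and Zfp41 were called higher, and without vehicle library 3 BC025446 was called lower.

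**Figure D2:**
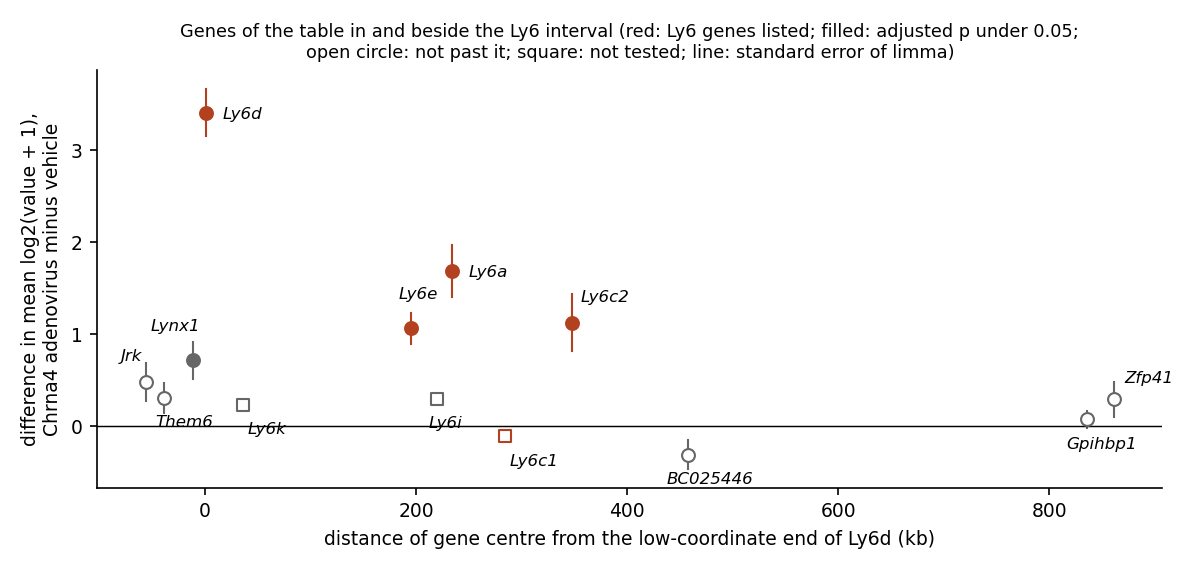
Difference in mean log2(value + 1) between Chrna4 adenovirus and vehicle (vertical axis) against the distance of each gene's centre from the low-coordinate end of Ly6d (horizontal axis, kb), for genes of the table in and beside the Ly6 interval. Filled points passed an adjusted p under 0.05 with limma, open circles did not, squares were not tested, and lines are the standard error. Ly6d stands at 3.41, Ly6a at 1.69 and the untested Ly6c1 at -0.11.

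Beyond this cluster, 44 more genes of the Ly6/uPAR family were listed, 12 were in the table and 5 could be tested, and they did not move one way: 2 were called higher and 2 lower, where 14.2% of all tested genes were called higher and 10.3% lower. Plaur, which encodes the urokinase receptor and lies on chromosome 7, averaged 4.75 ± 0.510 CPM in Chrna4 adenovirus and 1.13 ± 0.626 in vehicle (SD, n = 3 each), with a log2 fold change of 1.47 (SE 0.23; limma, adjusted p = 0.00338). Lynx1 averaged 2.80 ± 0.811 in Chrna4 adenovirus and 1.28 ± 0.237 in vehicle, and its call was lost with quantile normalization (limma, log2 fold change 0.35, adjusted p = 0.245) and without Chrna4 adenovirus library 1 or 2 or vehicle library 2 (limma, adjusted p = 0.0929 to 0.114). Both CD59 genes, which protect cells from complement, fell: Cd59a averaged 42.6 ± 3.52 in Chrna4 adenovirus and 78.4 ± 6.54 in vehicle (log2 fold change -0.87, SE 0.11; limma, adjusted p = 0.00137). Cd59b averaged 2.20 ± 0.298 in Chrna4 adenovirus and 4.59 ± 0.621 in vehicle (log2 fold change -0.80, SE 0.16; limma, adjusted p = 0.00896). Gpihbp1, which anchors lipoprotein lipase to capillary walls, averaged 25.04 ± 0.297 in Chrna4 adenovirus and 23.7 ± 1.06 in vehicle, and its log2 fold change had a 95% interval of -0.15 to 0.30; under plain totals it was 0.40 (limma, adjusted p = 0.0193).

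**Figure D3:**
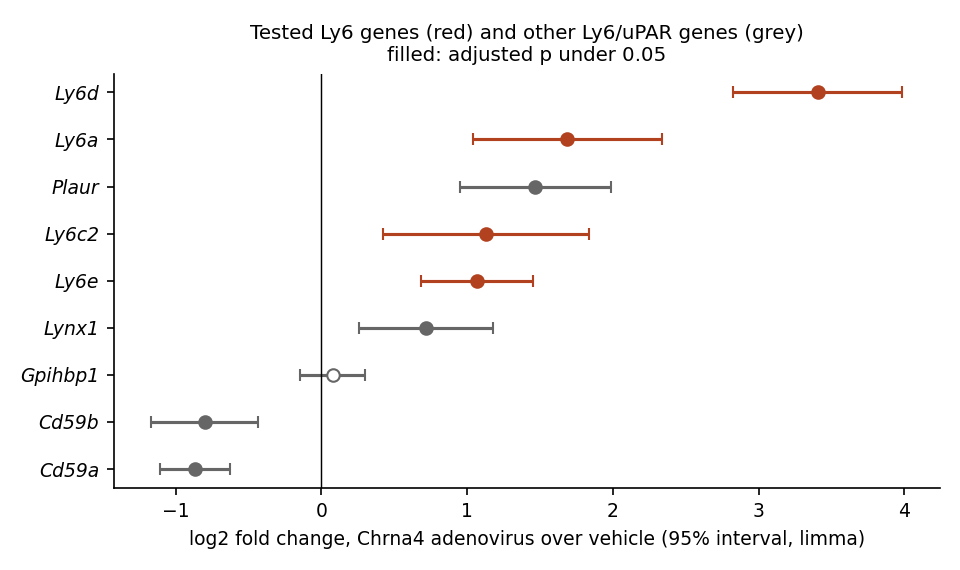
Log2 fold change of Chrna4 adenovirus over vehicle (horizontal axis) with its 95% interval from limma, for the 4 tested Ly6 genes (red) and 5 other tested Ly6/uPAR genes (grey), filled where the adjusted p was under 0.05. Ly6d at 3.41 and Cd59a at -0.87 are the extremes.

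Of 32 tested genes in a list for GPI anchor synthesis and transfer, which also holds the anchor-cleaving Gpld1, none was called higher and 1, Dpm3, lower (log2 fold change -0.57, SE 0.16, limma, adjusted p = 0.0326). The list median was 0.12. Under plain totals 16 were called higher, where 37.3% of all tested genes were, with a median of 0.40, beside the 0.30 of all genes, and Dpm3 was no longer called. Its call also ended without Chrna4 adenovirus library 2 or 3 or vehicle library 2, and without vehicle library 1 the list had 1 called higher and 2 lower. In a list of genes for other surface proteins, mostly GPI-anchored, 7 of 25 tested were called higher and 2 lower (14.2% and 10.3% of all tested genes), with a median of 0.067. Mfge8, a member that encodes a secreted bridge to dying cells and no anchored protein, averaged 32.7 ± 3.23 in Chrna4 adenovirus and 11.7 ± 1.04 in vehicle, and Fcgr3, an Fc receptor, 25.7 ± 2.58 in Chrna4 adenovirus and 11.2 ± 2.89 in vehicle. Cdh13, the anchored cadherin, averaged 1.16 ± 0.286 in Chrna4 adenovirus and 3.63 ± 0.376 in vehicle (SD, n = 3 each). Anchored members were called in both directions. Cd52, Cd48, Gpc6, Cd14 and Alpl were also called higher (log2 fold changes 1.72, 1.28, 1.17, 1.12 and 0.69), and Prnp was also called lower (-0.44).

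Ly6e and Ly6a are known to respond to interferons, and many other such genes were called higher. Of 35 tested interferon-stimulated genes 19 were called higher and none lower, where 14.2% of all tested genes were called higher, with a median log2 fold change of 0.74, beside -0.0067 for all genes. Likewise, of 25 interferon-gamma-responsive genes 19 were called higher and none lower, with a median of 1.06. Irf1, a transcription factor of the interferon response, averaged 64.3 ± 0.671 in Chrna4 adenovirus and 30.3 ± 1.81 in vehicle, and Tap1, a peptide transporter for antigen presentation, 87.1 ± 6.90 in Chrna4 adenovirus and 43.5 ± 5.16 in vehicle. Oasl2, an antiviral gene, averaged 25.9 ± 4.70 in Chrna4 adenovirus and 9.65 ± 3.31 in vehicle (SD, n = 3 each). The summed level of the 35 was 1651 to 2004 in Chrna4 adenovirus and 946 to 1308 in vehicle, the lowest again in library 1, and without that library the medians were 0.47 and 0.69 with 20 and 22 genes called higher. Under plain totals 31 of the 35 and 24 of the 25 were called higher, where 37.3% of all tested genes were. Of 12 signalling components 5 were called higher, among them the receptor chains Ifngr1 (33.3 ± 1.88 in Chrna4 adenovirus and 19.2 ± 2.84 in vehicle) and Il10rb (13.5 ± 0.476 in Chrna4 adenovirus and 5.78 ± 1.07 in vehicle). The part of interferon in the Ly6 values was not tested.

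Markers of cell types that carry Ly6 antigens were counted beside them. Of 11 tested markers of classical, Ly6C-high monocytes 7 were called higher (14.2% of all tested genes) and 1, Mgst1, lower (10.3% of all), with a median log2 fold change of 1.19 (0.84 without vehicle library 1). Ccr2, the chemokine receptor of these cells, averaged 7.64 ± 0.616 in Chrna4 adenovirus and 1.58 ± 0.300 in vehicle, and Plac8 19.2 ± 1.54 in Chrna4 adenovirus and 6.58 ± 2.08 in vehicle (SD, n = 3 each). The summed level of the list, 6994 to 7205 in Chrna4 adenovirus and 7544 to 9983 in vehicle, is dominated by genes that hepatocytes express, Hp alone averaging 3797 ± 91.7 in Chrna4 adenovirus and 3959 ± 782 in vehicle. Of 9 tested markers of patrolling, Ly6C-low monocytes 6 were called higher and none lower, and their sum was 113 to 146 in Chrna4 adenovirus, against 38.6 to 65.0 in vehicle. Cx3cr1, the fractalkine receptor of these cells, averaged 4.19 ± 0.418 in Chrna4 adenovirus and 0.764 ± 0.0775 in vehicle. Most tested markers of both kinds of monocyte were thus called higher, as Ly6c2 was, and their part in the Ly6c2 value was not tested. No marker of either list was at 0 in any library.

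Markers of T and NK cells, on which Ly6a is also found, had 9 of 16 called higher, against 14.2% of all tested genes, and none lower, with a sum of 72.0 to 86.2 in Chrna4 adenovirus and 13.8 to 40.6 in vehicle. Gzma, a granule protease of killer cells, averaged 11.8 ± 3.86 in Chrna4 adenovirus and 0.962 ± 0.566 in vehicle. Endothelial markers, by contrast, had 1 of 22 called higher (Lyve1) and 2 lower (Clec4g and Vwf), with a median log2 fold change of -0.014 and a sum of 713 to 922 in Chrna4 adenovirus against 755 to 909 in vehicle. Under plain totals both lower calls ended (Clec4g at -0.076, limma, adjusted p = 0.549; Vwf at -0.60, adjusted p = 0.0663), the median was 0.29 and 6 of 22 were called higher, where 37.3% of all tested genes were. With 1 library left out, Lyve1 lost its call without Chrna4 adenovirus library 2 or 3, Clec4g without Chrna4 adenovirus library 2, and Vwf without any single Chrna4 adenovirus library or vehicle library 2, while their log2 fold changes stayed at 0.997 to 1.73, -0.44 to -0.37 and -1.13 to -0.73. Without vehicle library 1, 2 were called higher and 4 lower. The endothelial sum, like Ly6c1, overlapped between the groups. The part of these cells in the Ly6a and Ly6c1 values was not tested.

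For Ly6d, the squamous epithelium list had 2 of 12 markers in the table, and the keratins Krt5 and Krt14 were not among them. Of these 2, Perp was called lower, at 86.5 ± 5.65 CPM in Chrna4 adenovirus and 112 ± 9.17 in vehicle (SD, n = 3 each). Its log2 fold change of -0.37 shrank to -0.039 under plain totals (limma, adjusted p = 0.773), and the call was also lost with quantile normalization (-0.25, adjusted p = 0.107), without the limma trend (adjusted p = 0.0520) and without Chrna4 adenovirus library 2 or 3 or vehicle library 2. B and plasma cell markers had 3 of 8 called higher, Jchain, Mzb1 and Cd22. Their sum, 446 to 546 in Chrna4 adenovirus and 384 to 510 in vehicle, is mostly Sdc1 and Xbp1, which hepatocytes also express, Sdc1 alone averaging 253 ± 19.4 in Chrna4 adenovirus and 224 ± 44.2 in vehicle. Jchain, which links antibody chains in plasma cells, averaged 24.9 ± 7.33 in Chrna4 adenovirus and 3.22 ± 2.04 in vehicle. Of 4 tested bile duct markers 1, Sox9, was called higher (not with quantile normalization, nor without Chrna4 adenovirus library 1 or 3 or vehicle library 2), and Cftr was at 0 in 2 Chrna4 adenovirus libraries and in 1 vehicle library. The part of these cells in the Ly6d value was not tested.

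Among other immune and stromal lists, Kupffer cell and neutrophil markers were called in each direction. Plasmacytoid dendritic cell markers and stellate cell and fibroblast markers had no lower calls. Of all tested genes 14.2% were called higher and 10.3% lower. Of 13 tested Kupffer cell markers 7 were called higher and 2, Cd163 and Timd4, lower (7 and 6 without vehicle library 1), and the sum was 1475 to 1516 in Chrna4 adenovirus against 505 to 1072 in vehicle. Of 12 neutrophil markers in the table only 5 could be tested, of which 4 were called higher (Lcn2 among them) and 1, Wfdc21, lower. The summed level of the 12, 292 to 394 in Chrna4 adenovirus and 451 to 627 in vehicle, is mostly Wfdc21 and Lcn2. Plasmacytoid dendritic cell markers had 3 of 6 called higher, among them Bst2 and Irf8, which are also in the interferon lists. Siglech, Tcf4 and Spib were not called. Bst2 lost its call without Chrna4 adenovirus library 1 or 2. Stellate cell and fibroblast markers had 8 of 13 called higher, led by the collagen genes Col1a1 (86.4 ± 6.59 in Chrna4 adenovirus and 8.22 ± 3.63 in vehicle, SD, n = 3 each), Col1a2 and Col3a1. Nicotinic receptor subunits had 3 tested genes, none of them called.

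**Figure D4:**
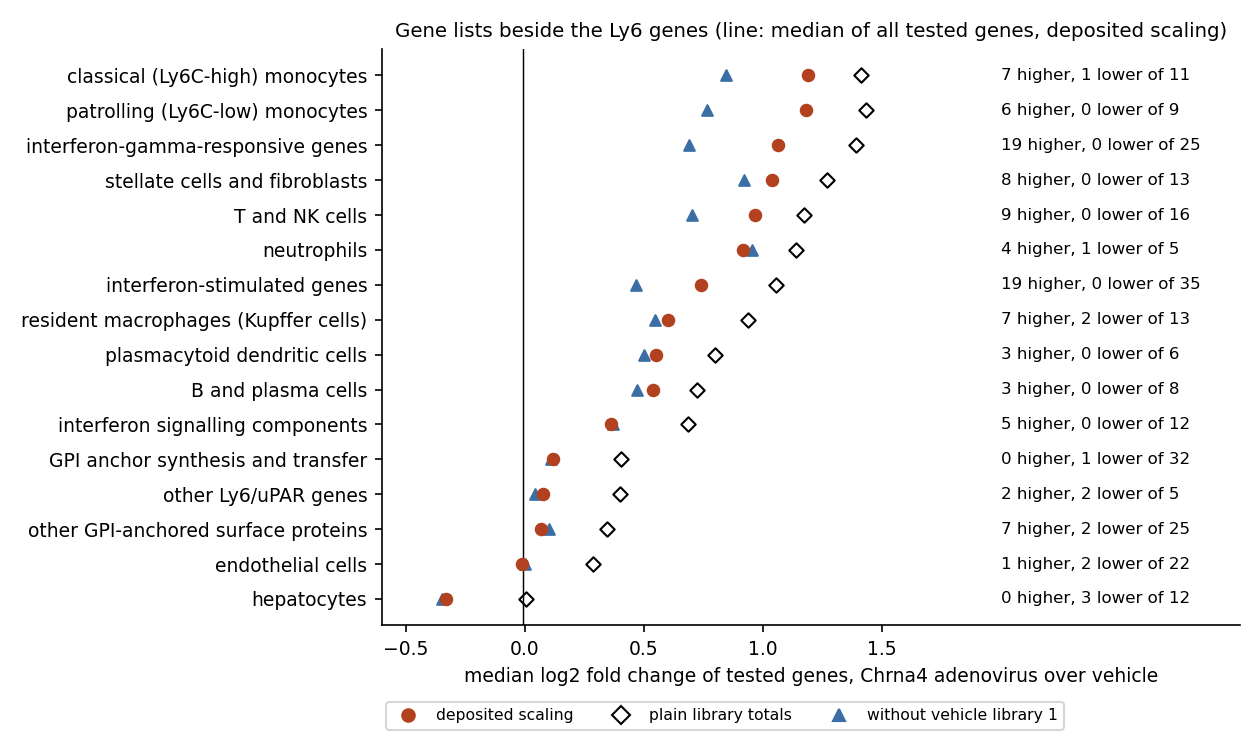
Median log2 fold change of Chrna4 adenovirus over vehicle (horizontal axis) for each gene list with at least 5 tested genes, under the deposited scaling (circles), plain library totals (diamonds) and without vehicle library 1 (triangles). Counts at the right are genes called with limma under the deposited scaling. Under the deposited scaling the interferon and monocyte lists lie between 0.36 and 1.19, against -0.014 for endothelial and -0.33 for hepatocyte markers.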

How the data were processed

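Each deposited signal is, per the text supplied with the series, a normalized value per gene and library. The submitters' processing notes name TopHat2, HTSeq, mm10 and GRCm38, with no versions. What annotation and strand setting were used, and how multi-mapped reads were handled, is not stated there. Each deposited signal was within 0.01 of a whole number after division by its column's value of 1 read (100% of values), so whole reads were recovered, and the implied scaling factors equal TMM factors recomputed with edgeR 4.0.16. The authors' deposited log2 fold changes were only quoted for Ly6d, and the authors' p-values were not used.

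limma 3.58.1 (R 4.3.3; trend, Benjamini-Hochberg, threshold 0.05) was fitted on log2(value + 1) for 12099 genes whose mean was 1 or more, and was tested on simulated data. edgeR's quasi-likelihood test and DESeq2 1.42.0 on recovered reads, other scalings, pseudocounts and filters, and leaving out each library were alternatives. Deposited column numbers only name libraries. Each limma p-value sets a group difference against only the spread between these libraries, moderated over the tested genes. Coordinates, exon lengths and coding sequences came from GENCODE M21, and the gene numbers of 14480 of 14492 genes were found there; promoters came from RefSeq, where 2 of the 5 Ly6 genes matched.

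The Ly6 genes and all lists were chosen with earlier results of these data known. Named genes were the 5 Ly6 genes, Chrna4, the other Ly6/uPAR genes past the threshold or among the 3 highest, genes of the interval with the 3 nearest tested genes on each side, the 3 most alike genes by correlation, and from each list the 3 lowest p-values past the threshold and the highest mean; not all of these are printed. Mgst1, Krt5, Krt14, Cftr, Ly6k, Ly6i and Ly6g6e were named after their values were seen. The same holds for Cd52, Cd48, Gpc6, Cd14, Alpl, Prnp, Siglech, Tcf4 and Spib.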

Additional observations from a re-analysis of the deposited data

How the results depend on the processing

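The calls of Ly6a, Ly6d and Ly6e held under every alternative run, with log2 fold changes of 1.30 to 2.00, 3.20 to 4.38 and 0.87 to 1.44; Ly6c2 ranged from 0.75 to 1.68 and lost its call as given above. Of the listed Ly6 genes 4 were called, and 3 with quantile normalization, with edgeR, without any single Chrna4 adenovirus library, without vehicle library 3 and with a minimum mean of 5, which left 3 tested. Leaving out 1 library gave 3 to 4 called Ly6 genes, 3 to 4 called other Ly6/uPAR genes and 1442 to 3331 called genes in all, against 2962, with 1866, 1442 and 1696 without Chrna4 adenovirus library 1, 2 and 3; plain library totals gave 4852. With a minimum mean of 5, 1 of 2 tested other Ly6/uPAR genes was called, since the filter removed Plaur, Lynx1 and Cd59b. Chrna4, never called, turned to -0.35 with quantile normalization, -0.064 with edgeR and -0.071 with DESeq2, and ranged from -0.30 to 0.27 over left-out libraries, with -0.082 and -0.10 without Chrna4 adenovirus library 1 or 3; BC025446 turned to 0.026 with plain totals and Zfp41 to -0.067 with quantile normalization, and the cause was not tested. No paired analysis was possible because nothing in the labels ties a library of one group to one of the other: the titles carry different liver numbers, and the column numbers 1 to 3 are tied to no batch, litter or day. Low counts limit Ly6c1, and 3 libraries a group limit every interval.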
